A study of Mus musculus with 16 samples.

Results

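The matrix metalloproteinases Mmp2, Mmp3, Mmp9, Mmp12, Mmp13 and Mmp14 and the tissue inhibitors of metalloproteinases Timp1, Timp2 and Timp3 were followed in mouse skin in which β-catenin was switched on in the epidermis. Probe sets were chosen by their annotated gene symbol, and the members themselves with earlier results of these data known. On the array 20 of the 20380 probe sets with 1 symbol belonged to these 9 genes, of 12393 genes with such a probe set. Of the 20, 18 probe sets of 8 genes passed a filter on low intensity, and Mmp13 did not. A gene's value was that of its brightest probe set, and the tests ran over 9058 genes in all.

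RNA of total skin was measured on 16 Affymetrix 430 A arrays, 1 per sample. The transgenic mice were of the D2 line of K14deltaNB-cateninER, in which the keratin 14 promoter, active in basal keratinocytes, drives an N-terminally truncated β-catenin fused to an oestrogen receptor part that 4-hydroxytamoxifen activates. They had received the drug for 0 days (2 arrays), 1 day (3 arrays) or 7 days (3 arrays). Wild-type C57BL/6 mice had received the same drug for 0 days (3 arrays), 1 day (3 arrays) or 7 days (2 arrays). The groups are called transgenic or wild-type day 0, day 1 and day 7. No group given the vehicle alone was analysed here, so the day 0 arrays are the untreated reference for drug and handling together. The labels give neither the age of the mice nor the strain background of the line. Most labels speak of mice and 3 wild-type labels of 1 mouse, so whether a sample is 1 animal or a pool is not settled, and every p-value rests on the spread among the samples as labelled.

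Matrix metalloproteinases are zinc-dependent proteases that cut collagens, proteoglycans, laminins and cell surface proteins. Most are secreted as inactive precursors and become active when a propeptide is cut off, and the inhibitors block the active enzymes by binding to their catalytic site. In skin they are made by dermal fibroblasts, keratinocytes, macrophages and vessels, and they are known for their part in wound repair and in the remodelling around growing hair follicles.

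The genotype labels were checked with Esr1, whose probe set reads the receptor part of the transgene: the lowest transgenic array stood at 80.7 and the highest wild-type array at 49.97. Arrays of 1 group correlated with each other at r between 0.973 and 0.988 over the log2 values of the 9058 tested genes, and no 2 held identical values. The Gapdh control signal at the 3' end over that at the 5' end, a sign of RNA quality, ran from 0.884 to 1.26 with a median of 0.958. It was highest in wild-type day 0 replicate 2 (1.26) and transgenic day 1 replicate 3 (1.16). Both arrays are named below where they touch a result.

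At day 7 the transgenic skin had less RNA for the gelatinase Mmp2, the stromelysin Mmp3 and the inhibitors Timp2 and Timp3 than at day 0, and more for the membrane protease Mmp14. In wild-type skin over the same 7 days Timp3 was lower, and none of the 6 other members tested passed in limma (4 of the 7 at an unadjusted p under 0.05). Mmp12, the macrophage elastase, read higher at day 7 in both genotypes, but it passed the filter through 2 day 7 arrays only, so its day 7 values are described without a test and it is left out of the counts below. At day 1 both genotypes had more Timp1 and less Mmp3 than at day 0, and wild-type skin also had less Mmp2. Fewer cells of a type and less RNA per cell cannot be told apart in RNA of total skin.

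Counts of members are read against the share of all 9058 genes past the same threshold, an adjusted p under 0.05 in limma. For transgenic day 7 against day 0, 5 of 7 members passed, where 38.7% of all genes passed: 1 was higher (18.6% of genes) and 4 lower (20.1%). For transgenic day 7 against day 1, 5 of 7 passed (44.3%), 1 higher (21.6%) and 4 lower (22.7%). At transgenic day 1 against day 0, 2 passed (10.7%), 1 higher (6.56%) and 1 lower (4.14%). In wild-type skin at day 1 against day 0, 3 passed (22.4%), 1 higher (10.1%) and 2 lower (12.3%). At wild-type day 7 against day 0, 1 of 7 passed (11.4%), with 0 higher (5.46%) and 1 lower (5.96%). Against day 1, 0 of 7 passed in limma (3.06%; 1.63% higher), and 4 members and 1706 genes had an unadjusted p under 0.05.

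Between genotypes 0 of 7 members passed in limma at day 0 (0.011% of genes; 1 member and 413 genes at an unadjusted p under 0.05) and 0 at day 1 (1.31% of genes; 1 member and 1820 genes unadjusted). At day 7, 4 of 7 members passed (40.5% of genes), and all 4 were lower in transgenic than in wild-type skin (21% of genes). Groups did not overlap for 6 of 7 members between transgenic day 7 and day 0, where the same held for 59.7% of all genes, and for 5 between the genotypes at day 7 (63%). The count was 4 for transgenic day 1 against day 0 (41.6%), 3 for wild-type day 1 against day 0 (41%) and 4 for wild-type day 7 against day 0 (44%). Over the 17 kept probe sets of the 7 members, 2 were higher and 9 lower at transgenic day 7 against day 0 (36.4% of 13882 probe sets passed), and 3 were higher and 2 lower at wild-type day 1 against day 0 (21.5%). The 9 lower ones include the dim Mmp9 probe set 1448291_at, above the filter level on 4 arrays only. The median log2 difference of the 7 members was -0.85 for transgenic day 7 against day 0, beside 0.01 for all genes. In wild-type skin it was -0.03, as it was for all genes. These comparisons share arrays, so their counts are not independent.

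The difference between genotypes in the change from day 0 was tested as an interaction. To day 7 it passed for 3 of 7 members, all with a lower change in transgenic skin, where 23.8% of all genes passed and 11.7% were lower. Among the 17 probe sets it passed for 8, all lower, where 20.6% of 13882 passed. The 8 include the dim Mmp9 probe set 1448291_at, above the filter level on 4 arrays only, whose value is a description. To day 1 the genotype difference passed in limma for 0 of 7 members, where 0.287% of genes passed (1 member and 1385 genes at an unadjusted p under 0.05). The 95% intervals to day 1 are drawn in the plot of log2 differences.

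**Figure D1:**
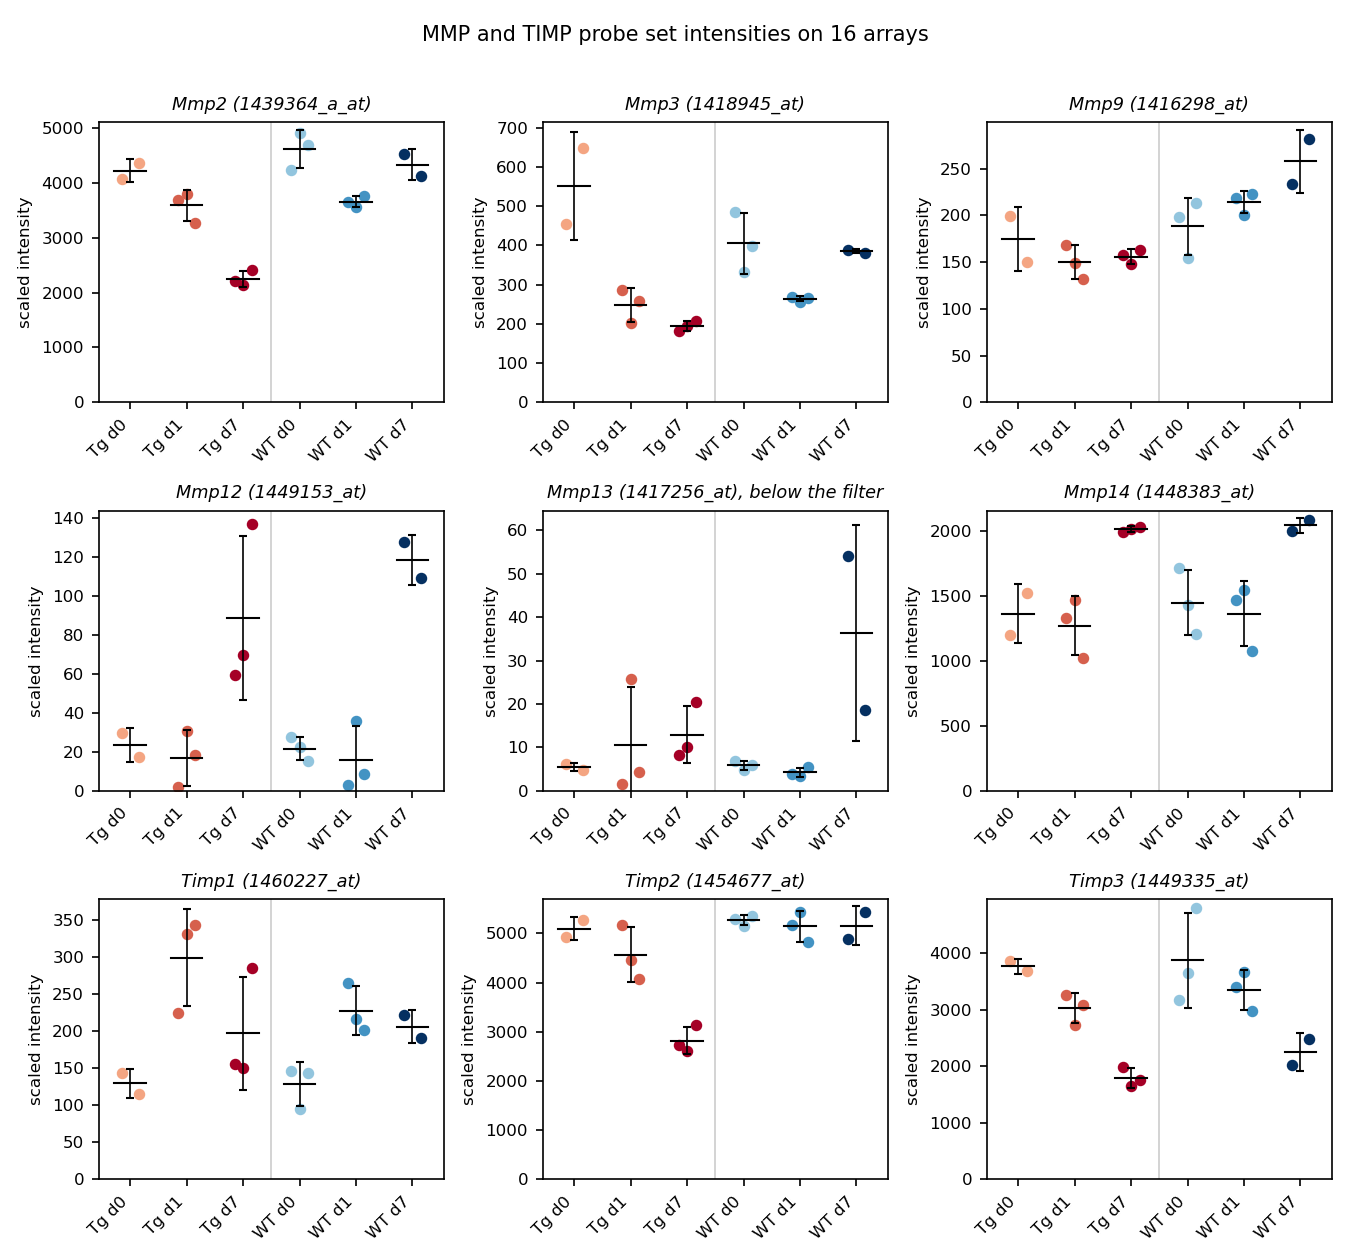
Scaled intensity (linear axis from 0) of the probe set used for each of the 9 genes on each of the 16 arrays; Tg is transgenic, WT wild type, d0, d1 and d7 the days of drug, points are arrays, bars are group means and whiskers 1 SD. Mmp2, Timp2 and Timp3 sit lowest on the 3 transgenic day 7 arrays, Mmp14 and Mmp12 highest at day 7 in both genotypes, and Mmp13 reads at most 54.0.

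**Figure D2:**
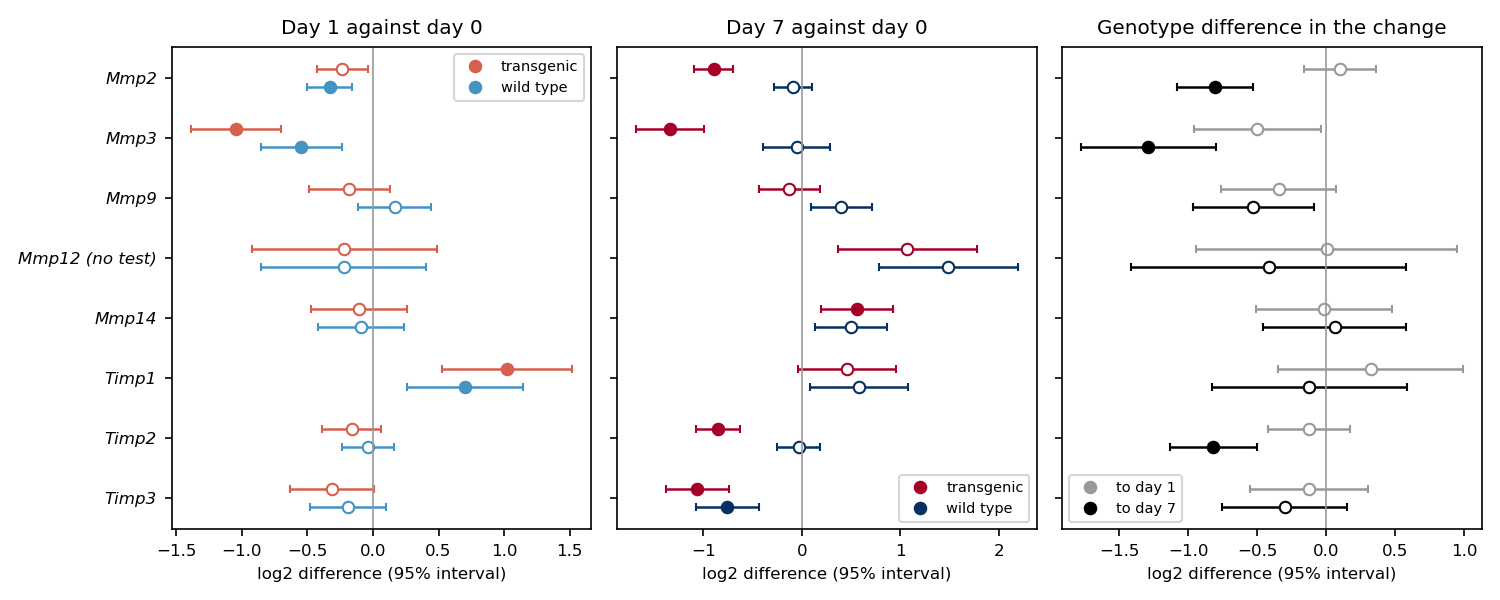
Log2 difference (horizontal axis, on the log2(intensity + 32) scale) with its 95% interval for 8 genes; filled points passed an adjusted p under 0.05 in limma and open points did not, in every panel whatever the legend's filled markers. Mmp12 is drawn open throughout as a description. The right panel gives the genotype difference of the change, past the threshold for Mmp2 (-0.81), Mmp3 (-1.29) and Timp2 (-0.82) to day 7.

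The genes Mmp3, Mmp12 and Mmp13 lie in a run of 10 Mmp genes on chromosome 9 with 0 other protein-coding genes between them in RefSeq's GRCm38.p6 table. Windows of 250 bases before to 50 bases after the start were found for 7 of the 9 members, 8 windows in all because Mmp12 has 2 starts. They are not given for Mmp2 and Mmp9. The windows of the members that carried a searched motif are shown first, because AP-1 is the classical inducer of this gene family and TCF/LEF factors are the partners of β-catenin on DNA. The windows of Timp2 and Timp3, which were both lower at transgenic day 7, follow for comparison. Capitals mark a match to AP-1, TGANTCA, or to TCF/LEF, CTTTGAN, searched on both strands, and the 2 motifs did not overlap in any member.

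Mmp3, chr9:7445572-7445871, plus strand: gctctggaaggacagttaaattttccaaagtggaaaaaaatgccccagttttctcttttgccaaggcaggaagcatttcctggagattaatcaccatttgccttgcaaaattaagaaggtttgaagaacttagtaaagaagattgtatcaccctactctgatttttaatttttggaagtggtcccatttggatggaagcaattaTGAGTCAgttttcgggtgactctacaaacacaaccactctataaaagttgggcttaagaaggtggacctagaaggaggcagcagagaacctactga
Mmp12, second start, chr9:7347124-7347423, plus strand: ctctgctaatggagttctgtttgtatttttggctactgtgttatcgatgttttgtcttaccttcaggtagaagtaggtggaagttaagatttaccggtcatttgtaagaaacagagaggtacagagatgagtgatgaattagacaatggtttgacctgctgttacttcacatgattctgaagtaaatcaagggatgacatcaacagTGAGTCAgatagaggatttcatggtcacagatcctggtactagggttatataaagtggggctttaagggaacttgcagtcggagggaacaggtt
Mmp13, chr9:7272264-7272563, plus strand: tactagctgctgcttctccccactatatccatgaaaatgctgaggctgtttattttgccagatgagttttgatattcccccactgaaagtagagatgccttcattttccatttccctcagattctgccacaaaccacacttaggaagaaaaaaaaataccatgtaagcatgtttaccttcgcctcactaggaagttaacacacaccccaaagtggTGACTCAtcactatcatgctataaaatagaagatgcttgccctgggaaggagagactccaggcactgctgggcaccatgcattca
Timp1, chrX:20869916-20870215, plus strand: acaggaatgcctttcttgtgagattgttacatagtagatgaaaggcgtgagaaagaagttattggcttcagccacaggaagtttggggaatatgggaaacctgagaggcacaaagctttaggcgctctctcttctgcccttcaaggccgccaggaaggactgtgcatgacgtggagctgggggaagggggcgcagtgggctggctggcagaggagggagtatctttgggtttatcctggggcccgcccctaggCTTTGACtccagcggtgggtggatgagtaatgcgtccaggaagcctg
Timp2, chr11:118355362-118355661, minus strand: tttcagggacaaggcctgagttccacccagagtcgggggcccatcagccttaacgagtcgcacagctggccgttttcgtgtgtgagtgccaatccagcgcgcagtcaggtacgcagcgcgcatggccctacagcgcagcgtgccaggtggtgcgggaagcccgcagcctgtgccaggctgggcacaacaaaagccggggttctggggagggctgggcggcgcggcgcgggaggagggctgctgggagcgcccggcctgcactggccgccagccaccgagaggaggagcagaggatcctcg
Timp3, chr10:86300162-86300461, plus strand: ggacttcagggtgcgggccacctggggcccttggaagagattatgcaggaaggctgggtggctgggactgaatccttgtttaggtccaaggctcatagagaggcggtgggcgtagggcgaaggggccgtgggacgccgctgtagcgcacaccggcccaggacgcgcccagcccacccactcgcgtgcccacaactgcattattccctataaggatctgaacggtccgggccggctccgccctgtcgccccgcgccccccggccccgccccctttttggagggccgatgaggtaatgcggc

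TGAGTCA stood at -46 to -40 from the Mmp3 start and at -44 to -38 from the second Mmp12 start, and TGACTCA at -35 to -29 from the Mmp13 start. AP-1 matches were found in 7.81% of the 32851 windows of this length in the table. The 1 TCF/LEF match among the members was CTTTGAC at 4 to 10 after the Timp1 start, and 5242 of the 32851 windows hold such a match. A match describes the letters of the window and is neither a site nor a cause of a change. The GC content of the windows split the family: it was between 38.7% and 43.7% for the windows of Mmp3, Mmp12 and Mmp13, against 56.0% for Mmp14, 55.0% for Timp1, 67.0% for Timp3 and 68.7% for Timp2. The 3 genes with an AP-1 match did not move alike: Mmp3 was lower at day 7 in transgenic skin, Mmp12 read higher at day 7 in both genotypes, and Mmp13 was too dim to test.

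Mmp2 encodes gelatinase A, which cuts denatured and basement membrane collagen and is made mainly by fibroblasts. Its intensity was 4072 and 4361 on the transgenic day 0 arrays, 3683, 3800 and 3270 at day 1, and 2212, 2132 and 2410 at day 7. In wild-type skin it was 4229, 4905 and 4689 at day 0, 3650, 3560 and 3748 at day 1, and 4524 and 4123 at day 7. The 3 transgenic day 7 arrays lay below all 13 others, and the day 1 arrays of both genotypes lay below all day 0 arrays. The fall from day 0 to day 7 in transgenic skin was -0.90 on the log2 scale (SE 0.09; adjusted p = 1.86e-06 in limma). The wild-type difference over the same time was -0.09 with a 95% interval of -0.28 to 0.10. The genotype difference of these changes was -0.81 (SE 0.13; adjusted p = 0.000494 in limma). At day 1 Mmp2 fell by 0.33 in wild-type skin (adjusted p = 0.0098 in limma), and leaving out wild-type day 0 replicate 2 ended that call (adjusted p = 0.052), as did no further scaling of the arrays (adjusted p = 0.53). The second Mmp2 probe set, 1416136_at, fell by 0.59 from transgenic day 0 to day 7 and differed between genotypes by -0.57 in that change.

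Mmp3, stromelysin 1, cuts proteoglycans, laminin and fibronectin and can activate other members of the family. Its 1 probe set read 454 and 648 at transgenic day 0, 286, 202 and 260 at day 1, and 182, 196 and 207 at day 7. The wild-type values were 485, 332 and 397 at day 0, 269, 257 and 266 at day 1, and 388 and 381 at day 7. Day 1 arrays were below the day 0 arrays in both genotypes, and at day 7 the genotypes separated, with wild-type skin back among its day 0 values and transgenic skin within or under its day 1 range. Mmp3 fell by 1.05 at transgenic day 1 (SE 0.16; adjusted p = 0.0010 in limma) and by 0.55 at wild-type day 1 (SE 0.15; adjusted p = 0.014), and this pair of changes differed by -0.50 with a 95% interval of -0.96 to -0.04 (adjusted p = 0.29). The fall at transgenic day 7 was -1.34 (SE 0.16; adjusted p = 1.04e-05 in limma), and it differed from the wild-type change by -1.29 (SE 0.23; adjusted p = 0.0010). Leaving out wild-type day 0 replicate 1 ended the wild-type day 1 call (adjusted p = 0.065), as did no further scaling (adjusted p = 0.15).

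Mmp13, collagenase 3, cuts fibrillar collagen. Its probe set was above its array's 40th percentile, between 101 and 132 by array, on 0 of 16 arrays, and no test of it is given in the main results. The values were 6.19 and 4.85 at transgenic day 0, 1.63, 25.8 and 4.29 at day 1, and 8.21, 10.1 and 20.4 at day 7. In wild-type skin they were 6.96, 4.81 and 5.89 at day 0, 3.96, 3.46 and 5.43 at day 1, and 54.0 and 18.7 at day 7. The highest value was on 1 wild-type day 7 array, and that array too was below its filter level.

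Mmp9 encodes gelatinase B, made by keratinocytes, neutrophils and macrophages. Its intensity was 199 and 151 at transgenic day 0, 168, 149 and 132 at day 1, and 157, 148 and 163 at day 7. Wild-type skin read 198, 154 and 213 at day 0, 219, 201 and 223 at day 1, and 234 and 282 at day 7. Within transgenic skin the days overlapped, and the difference of day 7 from day 0 was -0.13 with a 95% interval of -0.44 to 0.18. At day 7 the transgenic arrays were all lower than the wild-type arrays, by -0.62 (SE 0.15; adjusted p = 0.0032 in limma). Leaving out wild-type day 7 replicate 2 ended this call (adjusted p = 0.055), as did no further scaling (adjusted p = 0.085). The genotype difference of the change to day 7 was -0.53 (adjusted p = 0.077 in limma). The dimmer probe set 1448291_at was above the filter level on 4 arrays. These were transgenic day 0 replicate 1, wild-type day 0 replicate 3 and both wild-type day 7 arrays. At transgenic day 7 it read 13.95 to 92.22, under the filter level. It fell by 1.06 from transgenic day 0 to day 7 (adjusted p = 0.013 over 13882 probe sets in limma). The 2 Mmp9 probe sets thus disagreed on that comparison, the dimmer one on values near or under the filter level.

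Mmp12, the macrophage elastase, cuts elastin. Its probe set was dim: 29.9 and 17.4 at transgenic day 0, 2.07, 30.8 and 18.3 at day 1, and 59.3, 69.8 and 137 at day 7. Wild-type skin read 27.4, 22.5 and 15.3 at day 0, 3.15, 35.7 and 8.53 at day 1, and 127.6 and 109 at day 7. All 5 day 7 arrays lay above all 11 arrays of day 0 and day 1. It passed the filter through 2 of the day 7 arrays only, transgenic replicate 3 and wild-type replicate 1, so the filter had already picked it for being high at day 7. No test of its day 7 difference is therefore given. As a description, that difference from day 0 was 1.07 on the log2 scale in transgenic skin and 1.49 in wild-type skin. With either of the 2 arrays left out, the gene did not pass the filter. The genotype difference of the change was -0.42 with a wide 95% interval, -1.41 to 0.58.

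Mmp14 encodes a membrane-bound protease that cuts collagen at the cell surface and activates the Mmp2 precursor, in a complex that also holds Timp2. It read 1201 and 1524 at transgenic day 0, 1327, 1466 and 1020 at day 1, and 1988, 2017 and 2031 at day 7. The wild-type values were 1711, 1429 and 1206 at day 0, 1470, 1542 and 1077 at day 1, and 2001 and 2084 at day 7. All 5 day 7 arrays, of both genotypes, were above every other array. The rise from transgenic day 0 to day 7 was 0.56 (SE 0.17; adjusted p = 0.017 in limma), and from day 1 to day 7 it was 0.67 (SE 0.15; adjusted p = 0.0026). The call against day 0 ended when transgenic day 0 replicate 1 was left out (adjusted p = 0.19) or when the arrays were not scaled further (adjusted p = 0.30). In wild-type skin the difference of day 7 from day 0 was 0.50 (SE 0.17; adjusted p = 0.071), which passed with wild-type day 0 replicate 1 left out (adjusted p = 0.040). The genotype difference of the change was 0.06 with a 95% interval of -0.46 to 0.58. The other Mmp14 probe set, 1416572_at, rose in both genotypes, by 1.55 in transgenic (adjusted p = 0.0011 over 13882 probe sets in limma) and 1.51 in wild-type skin (adjusted p = 0.0079). Mmp2 and Mmp14, enzyme and activator, thus had opposite changes in transgenic skin at day 7, -0.90 and 0.56.

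Timp1, the inhibitor best known for its induction in inflamed and wounded tissue, read 144 and 115 at transgenic day 0, 224, 331 and 343 at day 1, and 155, 150 and 285 at day 7. In wild-type skin it was 147, 95.1 and 144 at day 0, 265, 217 and 201 at day 1, and 222 and 191 at day 7. In both genotypes every day 1 array was above every day 0 array, and the day 7 arrays overlapped with day 1. Timp1 rose by 1.02 at transgenic day 1 (SE 0.23; adjusted p = 0.012 in limma) and by 0.70 at wild-type day 1 (SE 0.21; adjusted p = 0.025). With transgenic day 0 replicate 2 left out, the transgenic call ended (adjusted p = 0.13). The wild-type call ended when day 0 replicate 2 (adjusted p = 0.12) or day 1 replicate 1 (adjusted p = 0.11) of that genotype was left out, and the first of these is the array with the highest Gapdh ratio. The difference of day 7 from day 0 was 0.46 in transgenic skin (95% interval -0.04 to 0.96; adjusted p = 0.14) and 0.58 in wild-type skin (95% interval 0.09 to 1.08; adjusted p = 0.12). From transgenic day 1 to day 7 Timp1 fell by 0.56 (adjusted p = 0.040 in limma), and this call ended under several alternatives, such as leaving out transgenic day 1 replicate 2 or 3 (adjusted p = 0.12 and 0.13) or day 7 replicate 1 or 2 (adjusted p = 0.15 and 0.16).

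Macrophage markers were also higher at day 1. Summed over the 10 of 11 listed macrophage genes on the array, intensity ran from 13900 to 15140 at transgenic day 0, from 21120 to 28470 at day 1 and from 13130 to 21770 at day 7. The wild-type sums ran from 14660 to 16530, from 26060 to 28930 and from 29180 to 30180. Of the 10 genes, 8 were higher at transgenic day 1 than at day 0 (adjusted p under 0.05 in limma, 6.56% of all genes). At wild-type day 1, 9 were higher (10.1%). The sums were high at day 1 in both genotypes, and at day 7 the wild-type arrays were above their day 0 range while the transgenic arrays overlapped theirs. At day 7, 9 of the 10 passed as lower in transgenic than in wild-type skin (21% of all genes). The Timp1 values there were 150 to 285 and 191 to 222. Within transgenic day 1, replicate 3 had the lowest sum, 21120, and a Timp1 value of 343, the highest. Replicate 1 had the highest sum, 28470, and a Timp1 value of 224, the lowest. Replicate 3 is also 1 of the 2 arrays of highest Gapdh ratio (1.16), and no relation is read from so few arrays. The neutrophil list had 9 of 10 genes on the array and 6 of these below the filter. Its sums ran from 548.7 to 712.9 at transgenic day 0, from 617.3 to 670 at day 1 and from 678.6 to 723.4 at day 7. In wild-type skin they ran from 537.5 to 639.5, from 738.8 to 1094 and from 757.7 to 855.4. Mmp12, a known macrophage product, read at most 35.7 on the day 1 arrays, under the filter level of each. The part of these cells in the members' values was not tested.

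Timp2 encodes an inhibitor that also takes part in the activation of Mmp2 by Mmp14. Its brightest probe set, 1454677_at, read 4932 and 5265 at transgenic day 0, 5175, 4456 and 4075 at day 1, and 2723, 2600 and 3135 at day 7. Wild-type skin read 5301, 5150 and 5361 at day 0, 5174, 5429 and 4818 at day 1, and 4877 and 5432 at day 7. The 3 transgenic day 7 arrays were far below the other 13, which spanned 4075 to 5432. Timp2 fell by 0.85 from transgenic day 0 to day 7 (SE 0.10; adjusted p = 1.19e-05 in limma), and the wild-type difference was -0.03 with a 95% interval of -0.26 to 0.19. The genotype difference of the change was -0.82 (SE 0.15; adjusted p = 0.0011 in limma).

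Timp2 has 6 probe sets, of which 5 passed the filter and 1437081_at did not, with values of at most 20.3. Against wild-type skin at day 7, 4 of the 5 were lower in transgenic skin, by -0.87 (1454677_at), -0.96 (1433662_s_at), -1.07 (1450040_at) and -0.94 (1460287_at), where 37% of 13882 probe sets passed. The fifth, 1420924_at, differed by -0.43 with a 95% interval of -1.29 to 0.44. At wild-type day 1 against day 0 the probe sets disagreed: 1460287_at rose by 0.56 and 1420924_at by 1.25 (adjusted p = 0.013 and 0.025 in limma), while 1454677_at differed by -0.04 with a 95% interval of -0.24 to 0.16. Both calls ended when wild-type day 0 replicate 2 was left out (adjusted p = 0.063 and 0.13), and when wild-type day 1 replicate 1 was left out (adjusted p = 0.061 and 0.096). The 1460287_at call also ended with no further scaling (adjusted p = 0.069).

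**Figure D3:**
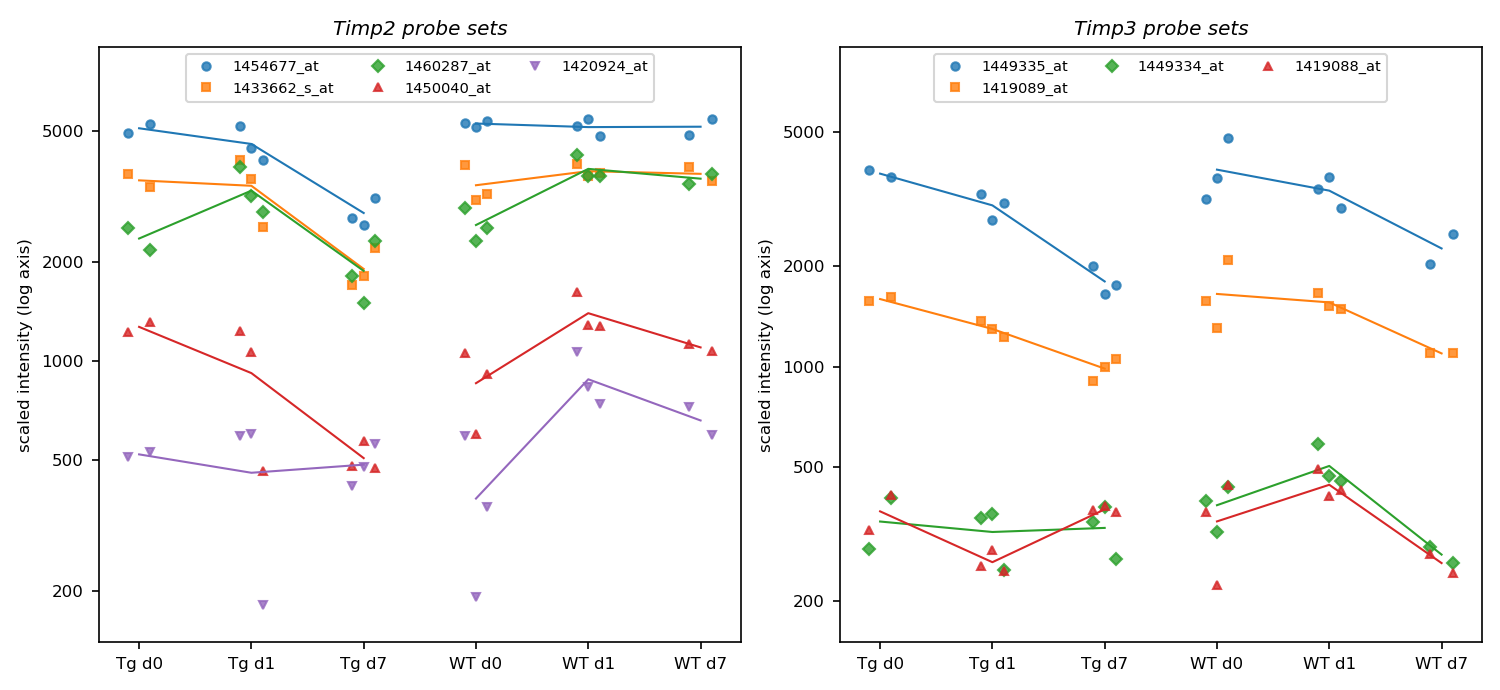
Scaled intensity on a log axis of the 5 Timp2 and 4 Timp3 probe sets above the filter, by group (Tg transgenic, WT wild type, d0 to d7 the days); points are arrays and lines join the group means within a genotype. All Timp2 probe sets but 1420924_at were past the threshold between genotypes at day 7, and the 2 brighter Timp3 probe sets fell in both genotypes to day 7 while the 2 dimmer ones (0.03 and -0.05 in transgenic skin) did not pass.

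Probe set 1420924_at was lowest on the 2 arrays with the highest Gapdh ratios, at 182 on transgenic day 1 replicate 3 and 192 on wild-type day 0 replicate 2, while its 14 other values ran from 362 to 1070. Probe set 1450040_at read 465 and 600 on these arrays and 915 to 1628 on the 9 other arrays of day 0 and day 1. The brightest probe set read 4075 and 5150 there. The part of RNA quality in the disagreement of the Timp2 probe sets was not tested. The transgenic day 7 arrays had ratios of 0.915, 0.932 and 0.911, in the low part of the range.

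**Figure D4:**
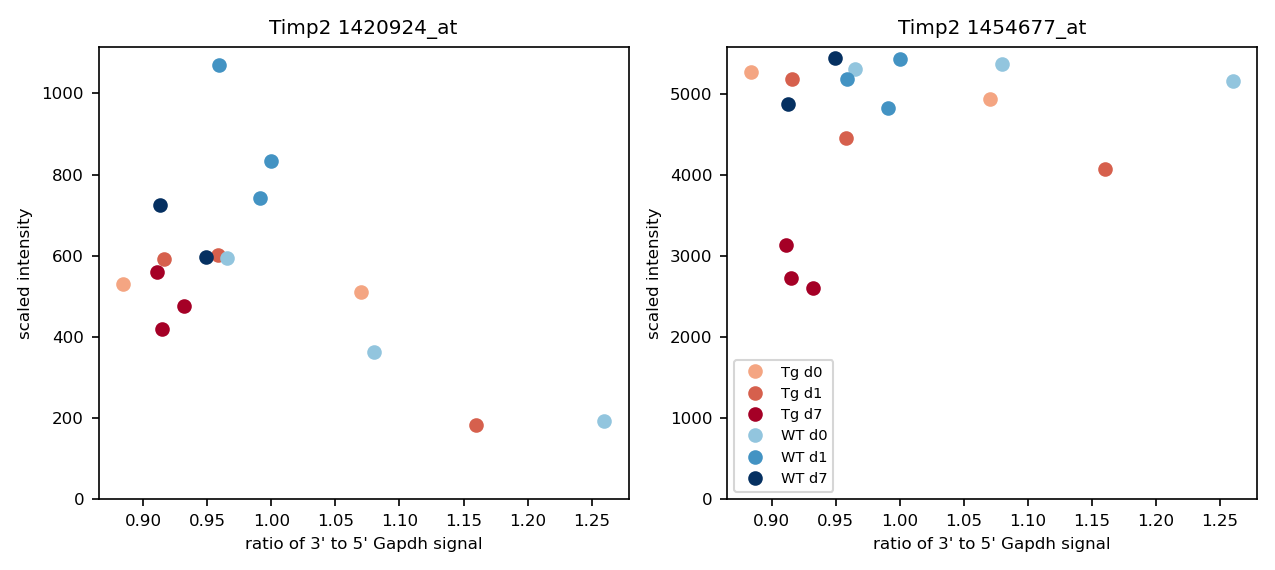
Scaled intensity of 2 Timp2 probe sets (linear axes from 0) against the array's ratio of 3' to 5' Gapdh signal; each point is 1 of 16 arrays, coloured by group (Tg transgenic, WT wild type, d0 to d7 the days). Probe set 1420924_at reads 182 and 192 on the 2 arrays of highest ratio, and 1454677_at reads 4075 and 5150 there, with the 3 transgenic day 7 arrays low at ratios of at most 0.932.

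Timp3 encodes an inhibitor that stays bound to the matrix and also blocks proteases of the ADAM family. Its brightest probe set read 3858 and 3677 at transgenic day 0, 3265, 2736 and 3086 at day 1, and 1993, 1642 and 1751 at day 7. Wild-type skin read 3166, 3653 and 4798 at day 0, 3401, 3675 and 2979 at day 1, and 2020 and 2485 at day 7. Day 7 lay below day 0 and day 1 in both genotypes without overlap. Timp3 fell by 1.06 in transgenic skin from day 0 to day 7 (SE 0.15; adjusted p = 4.75e-05 in limma) and by 0.76 in wild-type skin (SE 0.15; adjusted p = 0.0051). The genotype difference of the change was -0.30 with a 95% interval of -0.75 to 0.15, so an unequal fall was not shown. The wild-type call ended when wild-type day 7 replicate 1 was left out (adjusted p = 0.089) or when the arrays were not scaled further (adjusted p = 0.075). Probe set 1419089_at fell in both genotypes, by 0.68 and 0.55. The dimmer probe sets 1419088_at and 1449334_at, above the filter level on 16 of 16 arrays, differed by 0.03 and -0.05 in transgenic skin. From transgenic day 1 to day 7 1419088_at rose by 0.48 (adjusted p = 0.034 over 13882 probe sets in limma), against the direction of the brighter ones. The wild-type means of 1419088_at and 1449334_at were 344.7 and 385.4 at day 0 and 258.9 and 274.4 at day 7. At day 7 probe set 1419088_at read 367.2 to 382.2 in transgenic and 242.5 to 275.2 in wild-type skin, the reverse of the brightest probe set's order.

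The levels of the 6 groups had a different order for each gene. For Mmp2 the order from the highest mean was wild-type day 0 (4608 ± 345, SD, n = 3), wild-type day 7 (4324 ± 283, n = 2), transgenic day 0 (4217 ± 204, n = 2), wild-type day 1 (3652 ± 94.1, n = 3), transgenic day 1 (3584 ± 278, n = 3) and transgenic day 7 (2251 ± 143, n = 3). The first 3 neighbours overlapped in their arrays, as did the 2 day 1 groups, and transgenic day 7 stood alone. For Mmp14 both day 7 groups came first, wild-type 2042 ± 58.3 (SD, n = 2) and transgenic 2012 ± 22.3 (n = 3), and overlapped with each other but with no other group. For Timp3 both day 7 groups came last, wild-type 2252 ± 329 (SD, n = 2) and transgenic 1795 ± 180 (n = 3), and did not overlap.

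Across the 16 arrays Mmp2 and Timp2 had the most similar pattern of any pair of members, with a Pearson r of 0.93 of log2 values, followed by Mmp12 and Mmp14 at 0.80 and Timp2 and Timp3 at 0.78. Timp3 ran opposite to Mmp12 at -0.75 and to Mmp14 at -0.73. Of all 9057 other genes, the one most like Mmp2 was Ecm1, an extracellular matrix protein of skin, at 0.97, followed by Alpk3 and by Pdgfrb, a receptor of fibroblasts and pericytes, at 0.96. Ecm1 was also the gene most like Timp2, at 0.96, followed by Tmeff2 and Htra1. Klk6, a skin protease of the kallikrein family, was most like Mmp14 at 0.87 and second for Mmp12 at 0.80. The genes most like the rest were Cog6 for Mmp3 (0.92), Thbd for Mmp9 (0.91), Msn for Timp1 (0.91) and Sun1 for Timp3 (0.96). These values describe 16 arrays in 6 groups that the genes share, and no test is given.

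Markers of other cell types moved with the day 7 values of transgenic skin. The summed intensity of the 8 growing hair follicle genes was between 418 and 664 on the 13 arrays of the other groups and between 29470 and 42810 at transgenic day 7. The 9 of 10 dermal fibroblast genes on the array summed to 21990 to 24620 at transgenic day 0, 19710 to 24930 at day 7 and 25870 to 26200 at wild-type day 7. The 4 of 5 fat cell genes on the array summed to 14210 to 16930 at transgenic day 0, 5088 to 6362 at day 7 and 8937 to 14160 at wild-type day 7. The 5 skeletal muscle genes summed to 44440 to 49590 and 25980 to 33470 at transgenic day 0 and day 7, and the 6 endothelial genes to 1606 to 1672 and 781 to 1006. The fat, muscle and vessel sums were thus low on the same 3 arrays as Mmp2, Timp2 and Timp3. Mast cell sums were also lower there, 1757 to 2321 against 2517 to 2541 at transgenic day 0. So were the sums of basal keratinocytes (27510 to 28660 against 31670 to 36300) and differentiated keratinocytes (31320 to 34390 against 35790 to 40210). At wild-type day 1 these keratinocyte sums overlapped them, at 25840 to 30670 and 32450 to 36090. The part of tissue makeup in the members' changes was not tested.

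Of 17 listed genes 12 were on the array with 1 symbol and 6 were tested, while Mmp7, Mmp8, Mmp10, Mmp16, Mmp17 and Mmp20 were below the filter. For transgenic day 7 against day 0, 1 was higher and 2 were lower of the 6 tested, where 38.7% of all genes passed, and against day 1, 2 were higher and 3 lower (44.3%). Reck, a membrane-anchored inhibitor of these proteases, fell by 1.21 in transgenic skin (adjusted p = 1.04e-05 in limma) and by 0.90 in wild-type skin (adjusted p = 0.0016). Timp4 fell by 0.49 and Mmp24 rose by 0.48 in transgenic skin. In wild-type skin Mmp19 rose by 1.40 at day 1 and by 1.18 at day 7, and Mmp11, the stromelysin 3 gene, rose by 1.56 from transgenic day 1 to day 7. The mean intensity of Mmp24, Mmp11 and Mmp19 at the earlier time was 89.7, 61.4 and 61.5, under the filter levels of 101 to 132. Their rises are therefore given as a description. The counts of higher genes above include Mmp24 against day 0 and Mmp11 against day 1. The inhibitors Reck, Timp2, Timp3 and Timp4 were lower at transgenic day 7 than at day 0, while the inhibitor Timp1 differed by 0.46 and did not pass. Of the 4 genes, Reck and Timp3 also passed in wild-type skin.

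Of 18 listed ADAM and ADAMTS proteases 13 were tested. At wild-type day 1 against day 0, 7 were higher and 1 lower (22.4% of all genes passed), with a median log2 difference of 0.43 beside -0.03 for all genes, and at transgenic day 1, 4 were higher and 1 lower (10.7%). Adam12 rose by 1.11 and 1.64 at day 1 in transgenic and wild-type skin, and Adamts1, which cuts versican and aggrecan, by 1.23 and 1.27. At day 7, 6 were lower and 1 higher in transgenic than in wild-type skin (40.5%), among them the sheddases Adam17 (-0.58) and Adam9 (-0.61). The mean intensity of Adamts4 was 23.2 at transgenic day 0, under the filter levels of 101 to 132, and 160.8 at day 7. Its log2 difference of 1.79 is therefore given as a description.

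Of 12 listed proteases that activate metalloproteinases, and their inhibitors, 6 were tested. Serpinb2, an inhibitor of plasminogen activators, fell by 1.87 at transgenic day 7 (adjusted p = 2.72e-08 in limma) and by 0.53 in wild-type skin. St14, the membrane serine protease matriptase, rose by 1.01 in transgenic skin to day 7 and differed from the wild-type change by 1.33. Plau, which encodes urokinase, and Plg were below the filter.

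Among 20 tested matrix substrates of 21 listed, 7 were higher and 3 lower at transgenic day 7 against day 0 (38.7% of all genes passed), with a median of 0.16 beside 0.01 for all genes, and 5 were higher and 3 lower in wild-type skin (11.4%). Versican (Vcan), a large proteoglycan of growing dermis, rose by 1.73 in transgenic and 1.08 in wild-type skin at day 7. Tenascin C (Tnc), a matrix glycoprotein of remodelling tissue, rose 2.82-fold in intensity + 32 in transgenic skin to day 7, and Col17a1, a collagen of the basal keratinocyte's anchoring junction, fell by 1.18. The mean intensity of Tnc was 104.1 at transgenic day 0, near the filter levels of 101 to 132, and 348.6 at day 7. Its rise, counted among the 7 higher, is therefore a description. Among 15 tested inducers of metalloproteinase transcription of 19 listed, 3 were higher and 2 lower at transgenic day 7, a share of 5 in 15 beside 38.7% of all genes. There Junb rose by 0.67, Tgfb1 by 0.81 and Ets1 fell by 0.59. The AP-1 subunit Fosl1 fell by 0.64 at transgenic day 1, and in wild-type skin at day 1 Fosb fell by 0.85 and Jun by 0.35. The Fosl1 means, 115.9 at transgenic day 0 and 63.2 at day 1, were near or under the filter levels. Tnf and Il6, cytokines that induce Mmp3, were below the filter.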

How the data were processed

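The authors deposited 1 linear intensity per probe set, for 22690 probe sets on 16 arrays. Per the labels, biotin-labelled cRNA of total skin was hybridised to Affymetrix 430 A arrays. Which software summarised the probes was not given in the labels or headers used here. Each array was scaled to 1 trimmed mean (2% removed at each end; factors 0.825 to 1.26), and log2(intensity + 32) was taken, which understates changes of dim genes. Probe sets above the array's 40th percentile on at least 2 arrays and with 1 symbol were kept (13882). The brightest stood for its gene, which left 9058 genes. Symbols came from the platform annotation, and 0 member symbols changed on looking them up in RefSeq's GRCm38.p6 table.

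With limma 3.58.1, 6 group means were fitted to the 16 arrays (in R 4.3.3; eBayes with an intensity trend, 10 residual degrees of freedom) for 11 comparisons. Tests were two-sided, with Benjamini-Hochberg adjustment within a comparison and a threshold of 0.05. Differences between probe sets come from the same fit over 13882 probe sets. The number of arrays limits the precision. The script was tested on simulated data. Figures used matplotlib 3.10.9.

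Replicate numbers were not used to pair the arrays in the main fit. In comparisons with 3 pairs the correlation of same-numbered deviations ran from -0.16 to 0.17, and in none was every pair above 0.1. So few pairs cannot exclude a batch shared by arrays of the same number. Promoter windows are from RefSeq's GRCm38.p6.

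The members and the gene lists were chosen with earlier results of these data known. Named were all 9 members, from each pathway list at most the 3 genes of smallest adjusted p in a comparison, and the 3 genes most like each member. Alternatives varied scaling, the added constant, the filter, the probe set rule, the arrays in the fit, the replicate block and single arrays left out.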

Additional observations from a re-analysis of the deposited data

Results flagged for a closer look

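Each of these values is the genotype difference of the change from day 0 to day 7 (transgenic minus wild-type, log2) and was past an adjusted p of 0.05 in limma, which is why it is listed. Among members it was -0.81 for Mmp2 (1439364_a_at) and -0.57 for its second probe set (1416136_at), and -1.29 for Mmp3. For Timp2 it was -0.82 (1454677_at), -1.01 (1433662_s_at), -1.66 (1450040_at) and -0.81 (1460287_at). At wild-type day 0 probe set 1450040_at read 1058, 599.6 and 915.4. The lowest was on replicate 2, the array with the highest Gapdh ratio (1.26). The dim Mmp9 probe set 1448291_at gave -1.57, while the brighter one missed the threshold. The dim one was above the filter level on 4 arrays, among them both wild-type day 7 arrays, its highest. Its value is therefore a description. In the pathway lists it was -0.58 for Adam9, -0.48 for Adam17, -0.88 for Adamts15, -1.34 for Serpinb2, 1.33 for St14, 1.68 for Tnc, -0.77 for Col17a1, -0.66 for Nid1 and -0.90 for Ets1. The Tnc means were 104.1 at transgenic day 0, 118.8 at wild-type day 0 and 100.7 at wild-type day 7, near the filter levels. Its value is therefore a description. The share of all genes past this threshold was 23.8%. Groups held 2 or 3 arrays, too few to test single arrays as outliers.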

How the results depend on the processing

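Of 2321 values of the 8 members under the alternatives, 2284 kept their side of the threshold, 26 fell short of it and 11 came past it. Of the 2284, 2206 kept their direction, and 78 that did not pass the threshold changed sign. Of values past the threshold 0 changed sign. The counts in this paragraph include Mmp12, which the filter had picked for being high at day 7. Its part in the 4 comparisons of day 7 with an earlier day within a genotype is therefore no result. There the main counts are 1 above those without it. The counts of members past the threshold that moved by more than 1.5 times were these. With no further scaling, the count was 1 for wild-type day 1 against day 0 (main 3) and 1 for wild-type day 7 against day 0 (main 2). With the filter at the 60th percentile on 3 arrays, which left 5 members tested, it was 1 for transgenic day 1 against day 0 and 1 for wild-type day 7 against day 0. With quantile normalization it was 2 for wild-type day 7 against day 1. Leaving out 1 array at a time, the counts ran from 1 to 2 for transgenic day 1 against day 0, from 5 to 6 for transgenic day 7 against day 0 and against day 1, from 1 to 3 for wild-type day 1 against day 0, from 0 to 3 for wild-type day 7 against day 0, from 0 to 2 for wild-type day 7 against day 1, from 3 to 4 for the genotypes at day 7 and for the genotype difference to day 7, and from 0 to 0 for the genotypes at day 0 and day 1 and the genotype difference to day 1. With the replicate number as a block the counts were 2, 6 and 6 in transgenic skin, 3, 2 and 1 in wild-type skin, 0, 0 and 4 between genotypes at days 0, 1 and 7, and 0 and 3 for the genotype differences, as without it. Without both arrays of highest Gapdh ratio, an alternative chosen after seeing the data, they were 2, 6 and 5 in transgenic skin, 2, 2 and 1 in wild-type skin, 0, 0 and 4 between genotypes, and 0 and 3.

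No further scaling moved the share of calls that were higher, over all genes, from 48.1% to 29.4% for transgenic day 7 against day 0, from 44.9% to 81.9% and from 47.8% to 64% for wild-type day 1 and day 7 against day 0, from 54.6% to 75% between genotypes at day 1, and from 50.8% to 39% for the genotype difference to day 7. It moved the median of all genes to -0.13 for transgenic day 7 and -0.16 for transgenic day 1 against day 0. The cause was not tested. As a description, with 8 added in place of 32 the Mmp12 difference of transgenic day 7 from day 0 was 1.56, beside 1.07. With no filter, Mmp13 differed by 0.80 between wild-type day 7 and day 0 (adjusted p = 0.042 in limma), a value that rests on 2 dim readings, 54.0 and 18.7. Low signal limits Mmp12, Mmp13 and the second Mmp9 probe set most.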
